A study of Mus musculus with 12 samples.

Results

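The inflammasome is described here in the mouse cortex through 9 genes: the sensors Nlrp3, Aim2 and Nlrc4, the kinase Nek7, the adaptor Pycard, the proteases Casp1 and Casp4, the pore protein Gsdmd and the cytokine Il18. They were chosen by gene symbol from the 17202 genes of the deposited expression table, with earlier results of these data known. The study had already reported Nlrp3, Aim2, Nlrc4, Pycard, Gsdmd and Il18 as raised in vehicle-treated deletion mice. All 9 passed the filter on low values, Casp4 by a narrow margin. None of the 9 was a differentially expressed gene (DEG) in any comparison made, where 0% to 0.257% of the 17111 genes tested were. The largest fold change with deletion of the region was that of Nlrp3, which averaged 32.4 ± 4.07 normalized counts in vehicle-treated wild-type mice and 50.2 ± 1.97 in vehicle-treated deletion mice (SD, n = 3 each).

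An inflammasome is a protein complex of myeloid and other cells. A sensor such as NLRP3, AIM2 or NLRC4 recognizes damage or microbial products, recruits the adaptor ASC (the product of Pycard) and so activates caspase-1. Caspase-1 then matures interleukin-18 and interleukin-1 beta and cleaves gasdermin D, which opens pores in the membrane. In the brain these proteins have been studied mostly in microglia, and much of their regulation takes place after transcription, which RNA levels do not show.

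RNA from the cortex (the frontal cortex in the study's methods) of 12 male mice was sequenced, 3 in each of 4 groups that crossed genotype with treatment. CD mice carry a heterozygous deletion from Gtf2i to Fkbp6, a model of Williams-Beuren syndrome, and WT mice carry both copies. All mice came from a cross with a Thy1-YFP line, whose transgene labels pyramidal neurons, on a C57BL/6J background. VERCUR mice (VERCUR-WT and VERCUR-CD) drank verapamil, which blocks calcium channels, together with curcumin, the yellow phenol of turmeric, and VEH mice (VEH-WT and VEH-CD) drank vehicle. The labels give daily doses of 60 mg/kg for curcumin and 10 mg/kg for verapamil over 1 month from 8 weeks of age, and collection at 16 weeks. The methods give a lower dose of verapamil and a younger age at collection, and the labels call the VEH mice untreated. The study asked whether the co-treatment brings the expression of affected genes in CD mice back towards that of WT mice, and treated WT mice were included beside them.

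Values are normalized counts, that is reads counted on a gene divided by 1 factor per mouse. Between 40290000 and 56480000 reads were counted per mouse. The 19 genes of the deleted region that were analysed lay between 0.468 and 0.530 of the VEH-WT level in the 6 CD mice, as medians over the genes, and between 0.959 and 1.04 in the 6 WT mice. Markers of striatal neurons (Drd1, Drd2, Ppp1r1b, Adora2a and Rgs9) summed to 5395 to 25455 normalized counts per mouse, and in each group 1 mouse was over 15000 (VERCUR-CD 1, VERCUR-WT 3, VEH-CD 1 and VEH-WT 3). Of the markers of microglia, 20 of 20 were detected, with a sum between 30213 and 38284. In whole tissue, fewer cells of a type and less RNA per cell cannot be told apart.

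A DEG had a Benjamini-Hochberg adjusted p under 0.05 in limma, which fits a linear model per gene and moderates its variance with those of the other genes, and a rise or fall of over 25%. Fold changes are on the scale of log2(normalized count + 1), which understates the changes of the lowest genes, and are given with the standard error (SE).

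The sequences just upstream of Nlrp3, Pycard and Il18 are shown because these are the 3 members whose VERCUR-CD mice all lay above all VEH-WT mice. Each run holds the 250 bases before the RefSeq transcript start on GRCm38.p6, 5′ to 3′ on the strand of the gene. Capitals mark matches on either strand to the letters of 5 motifs: PU.1 (GAGGAAGT), AP-1 (TGANTCA), part of the interferon-stimulated response element (AANNGAAA), the TATA box (TATAAA) and the NF-kappa B consensus. RefSeq gives Nlrp3 a pair of starts, of which the upstream one is shown, chr11:59541319-59541568 on the plus strand. The Pycard window is chr7:127993868-127994117 on the minus strand, and the Il18 window is chr9:50554450-50554699 on the plus strand.
Nlrp3: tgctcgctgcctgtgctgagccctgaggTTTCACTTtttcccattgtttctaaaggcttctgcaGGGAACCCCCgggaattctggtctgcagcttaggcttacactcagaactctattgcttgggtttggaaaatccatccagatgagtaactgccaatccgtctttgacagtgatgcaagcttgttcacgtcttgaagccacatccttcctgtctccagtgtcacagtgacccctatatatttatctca
Pycard: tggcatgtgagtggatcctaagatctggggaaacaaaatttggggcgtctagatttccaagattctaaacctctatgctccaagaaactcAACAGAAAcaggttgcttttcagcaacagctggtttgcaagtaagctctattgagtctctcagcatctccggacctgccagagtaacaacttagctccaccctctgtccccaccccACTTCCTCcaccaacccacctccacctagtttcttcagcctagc
Il18: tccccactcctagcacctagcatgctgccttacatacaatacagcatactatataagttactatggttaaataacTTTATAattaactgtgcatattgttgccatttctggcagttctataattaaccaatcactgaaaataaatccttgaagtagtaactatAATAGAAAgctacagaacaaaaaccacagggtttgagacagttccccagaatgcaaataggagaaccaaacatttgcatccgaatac

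In the Nlrp3 window the capitals are the response element letters, on the opposite strand at 222 to 215 bases before the start, and the NF-kappa B consensus, on both strands at 186 to 177. In the Pycard window they are the response element letters at 160 to 153 bases before the start and, on the opposite strand, the PU.1 letters at 44 to 37. In the Il18 window they are the TATA letters, on the opposite strand at 175 to 170, and the response element letters at 87 to 80. The windows share a match only in the response element letters, which 21.3% of the 32851 promoter windows of the same length held. The PU.1 letters stood in 2.44% of all windows, the NF-kappa B consensus in 7.25%, the TATA letters in 12.4% and the AP-1 letters in 6.75%. RefSeq windows were found for 8 of the 9 genes, 10 windows in all. Of these 10, 6 held the response element letters (Casp4, Il18, Nlrp3 and Pycard) and 3 the NF-kappa B consensus (Casp4 and Nlrp3). The PU.1 letters were in 2 (Pycard and Aim2), the TATA letters in 1 and the AP-1 letters in 0. Casp4 and Nlrp3 have a pair of windows each. Those of Casp4 start at 5308599 and 5308610, overlap and share most of their matches. The windows are thus not independent, and their counts were not tested against the shares of all windows. These are matches of letters, and binding was not measured.

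On GRCm38 (GENCODE M21), Nlrp3 lies on chromosome 11 (59541568 to 59566956, plus strand), Aim2 on chromosome 1 (173350879 to 173466040, plus strand) and Nlrc4 on chromosome 17 (74425438 to 74459142, minus strand). Nek7 lies on chromosome 1 (138482875 to 138620141, minus strand) and Pycard on chromosome 7 (127989708 to 127993867, minus strand). Casp1 (5298517 to 5307265) and Casp4 (5308828 to 5336783) are neighbours on the plus strand of chromosome 9, 1562 bases apart. Il18 is on the same chromosome (50554827 to 50581840, plus strand), and Gsdmd is on chromosome 15 (75862327 to 75867408, plus strand). None of the 9 is in the deleted region, which is on chromosome 5. The strand used in counting is not given in the sources used here, so reads of overlapping genes could have been counted on either gene. Exons of Pycard share 485 bases (12.8% of its exonic length) with Gm45205 on the other strand, and those of Nek7 share 118 bases with Gm28501. Aim2 spans the highly expressed neuronal gene Cadm3 on the other strand, with 0 exonic bases in common.

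Per kb of exonic length, the 9 genes covered a wide range of levels in the cortex. Il18 averaged 495 ± 56.2 normalized counts per kb over the 12 mice and Nek7 330 ± 40.4 (SD, n = 12 mice). Casp1 averaged 34.2 ± 8.39, Gsdmd 31.9 ± 6.01, Pycard 30.7 ± 4.83 and Aim2 20.2 ± 3.75 normalized counts per kb. Nlrp3 averaged 10.1 ± 2.41, Casp4 2.91 ± 0.716 and Nlrc4 2.83 ± 0.722. Neighbours in this order overlapped between mice for Il18 and Nek7, for Casp1, Gsdmd, Pycard and Aim2 in turn, and for Casp4 and Nlrc4. They did not overlap between Nek7 and Casp1, between Aim2 (lowest 14.6 per kb) and Nlrp3 (highest 12.8), or between Nlrp3 (lowest 5.74) and Casp4 (highest 4.18). On this length the order set the cytokine and the kinase above the adaptor, caspase-1 and gasdermin D, and those above the sensor Nlrp3. The exonic length of a gene joins the exons of all its annotated transcripts. It was 3800 bases from 2 transcripts for Pycard and 3710 bases from 7 for Casp4. The order was not tried with other lengths, such as that of a single transcript.

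**Figure D1:**
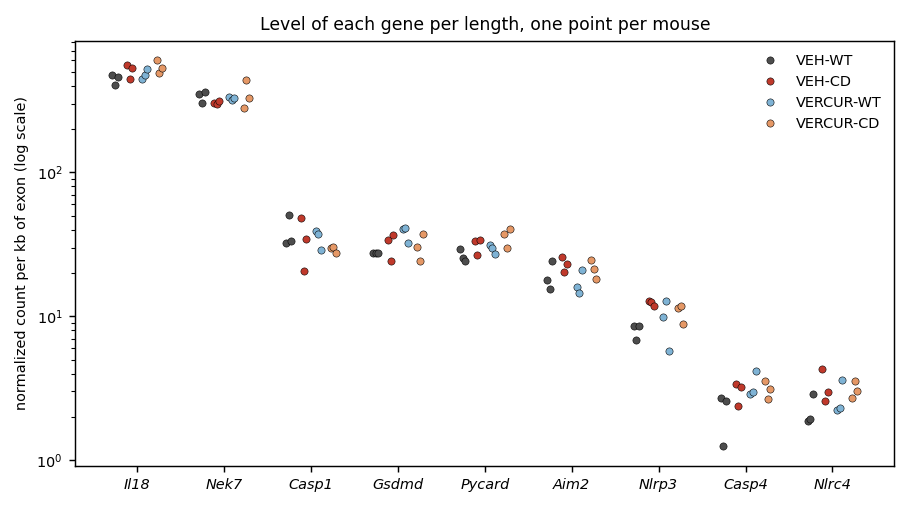
Normalized counts per kb of exonic length (log axis) of the 9 genes in order of their mean, with 1 point for each of the 12 mice, coloured by group. Il18 (495 per kb) and Nek7 (330) stand above the other 7 genes, and Casp4 (2.91) and Nlrc4 (2.83) are lowest.

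The counted reads behind these levels set how finely the mice could be compared. Nek7 had a median of 2438 counted reads per mouse and Il18 525, against 14.5 for Nlrc4 and 11 for Casp4. The coefficient of variation (CV) over all 12 mice was 25.5% for Nlrc4 and 24.6% for Casp4. Counting alone gives about 26.9% and 30.2% at their mean reads. The spread of these 2 genes over all mice, groups included, was thus no larger than counting error. For the other 7 genes the CV over mice exceeded the counting value, and as a ratio this was least for Nlrp3 (23.8% against 15.5%) and most for Nek7 (12.2% against 2.01%). The counting values cover counting error only.

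Nlrp3, the sensor that responds to potassium efflux and many other danger signals, had 34.8, 27.7 and 34.8 normalized counts in the VEH-WT mice and 51.4, 51.2 and 47.9 in the VEH-CD mice. The VERCUR-WT mice had 40.4, 51.9 and 23.3, and the VERCUR-CD mice 46.2, 47.7 and 35.6. All VEH-CD mice lay above all VEH-WT mice, all VERCUR-CD mice lay between those groups, and the VERCUR-WT mice spread over the whole range, holding both the highest and the lowest value of the 12. The difference of VEH-CD from VEH-WT was 0.62 ± 0.256 on the log2 scale (SE, 1.54-fold), with an unadjusted p of 0.0309 and an adjusted p of 0.363 (limma with Benjamini-Hochberg adjustment). Across all genes, 11.8% had an unadjusted p under 0.05 in this comparison and 9.28% had all VEH-CD mice above all VEH-WT mice. The VERCUR-CD mice differed from VEH-CD by -0.22 ± 0.256 (adjusted p = 0.885, limma) and from VEH-WT by 0.40 ± 0.256 (adjusted p = 0.702, limma). The gap between the highest VERCUR-CD and the lowest VEH-CD mouse was narrow (47.7 and 47.9). So was that between the lowest VERCUR-CD and the highest VEH-WT mouse (35.6 and 34.8). Of all genes, 4.63% had all VERCUR-CD mice below all VEH-CD mice (3.71% had them above, as 0 of the 9 did). Counted reads of Nlrp3 ran from 24 (exact Poisson 95% interval 15.4 to 35.7) in VEH-WT 2 to 58 (44.0 to 75.0) in VEH-CD 2.

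Aim2, the sensor of double-stranded DNA in the cytosol, had 62.8, 54.3 and 84.3 normalized counts in VEH-WT and 90.3, 71.5 and 80.3 in VEH-CD. VERCUR-WT mice had 55.8, 50.9 and 73.3, and VERCUR-CD mice 85.5, 74.6 and 63.5. The groups overlapped in every comparison. VEH-CD differed from VEH-WT by 0.28 ± 0.201 (log2, SE, adjusted p = 0.608, limma), VERCUR-CD from VEH-CD by -0.12 ± 0.201 (adjusted p = 0.911, limma) and VERCUR-WT from VEH-WT by -0.15 ± 0.201 (adjusted p = 0.999, limma). In each group, the mouse with the highest Aim2 value was the mouse with a striatal marker sum over 15000. The part of striatal tissue in the Aim2 values was not tested. Without those 4 mice the difference of VEH-CD from VEH-WT was 0.37, and with the striatal sum as a covariate 0.265. Cadm3, whose body Aim2 spans, had group means between 24570 and 25439 normalized counts.

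**Figure D2:**
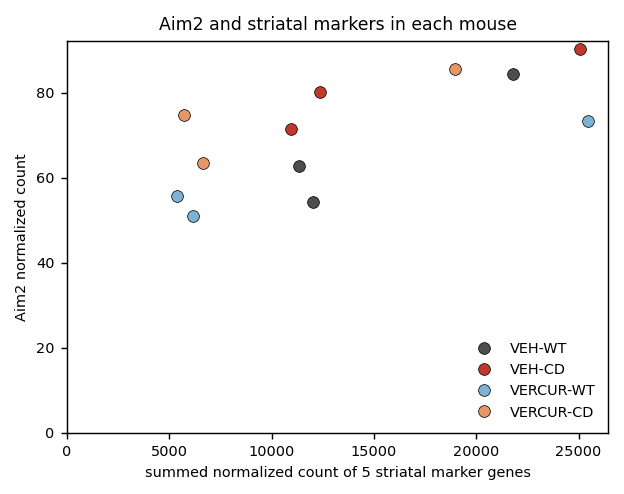
Normalized count of Aim2 against the summed normalized count of 5 striatal marker genes, 1 point per mouse, coloured by group. The 4 mice with a striatal sum over 15000 hold the highest Aim2 value of their own group (84.3, 90.3, 73.3 and 85.5).

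Nlrc4, the sensor that joins NAIP proteins bound to bacterial flagellin or secretion system proteins, was near the bottom of the range. It had 8.97, 9.24 and 13.9 normalized counts in the VEH-WT mice, 20.6, 12.4 and 14.4 in VEH-CD, 10.7, 11.1 and 17.2 in VERCUR-WT and 13.1, 17.1 and 14.4 in VERCUR-CD. The groups overlapped, and VEH-CD differed from VEH-WT by 0.51 ± 0.301 (log2, SE, adjusted p = 0.530, limma). The mice had 8 to 20 counted reads of Nlrc4 each. The interval of this difference ran from -0.14 to 1.17.

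Nek7, the kinase that binds NLRP3 and bridges its subunits, also acts in mitosis and was expressed well above the sensors. It had 2581, 2233 and 2685 normalized counts in the VEH-WT mice, 2250, 2209 and 2294 in VEH-CD, 2442, 2361 and 2435 in VERCUR-WT and 2071, 3214 and 2441 in VERCUR-CD. The VERCUR-CD group held both the lowest and the highest of the 12 values, while the VEH-CD and VERCUR-WT mice were close together (SD 42.3 and 44.8). VEH-CD differed from VEH-WT by -0.15 ± 0.124 (log2, SE, adjusted p = 0.664, limma) and VERCUR-CD from VEH-CD by 0.17 ± 0.124 (adjusted p = 0.867, limma). The mouse with 3214, VERCUR-CD 2, also had the largest sum of normalized counts over all genes (50770000, against 47430000 to 49100000 in the others). Without that mouse the difference of VERCUR-CD from VEH-CD was -0.001. The 95% interval of the difference with all mice ran from -0.10 to 0.44.

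Pycard, which encodes the adaptor ASC and links sensors to caspase-1, had 111, 97.0 and 91.3 normalized counts in VEH-WT and 127, 102 and 128 in VEH-CD. The VERCUR-WT mice had 119, 114 and 104, and the VERCUR-CD mice 142, 112 and 153. All VERCUR-CD mice lay above all VEH-WT mice, by a narrow margin (112 against 111), and the other comparisons overlapped. The difference of VERCUR-CD from VEH-WT was 0.44 ± 0.15 (log2, SE, 1.35-fold), with an unadjusted p of 0.0128 and an adjusted p of 0.452 (limma with Benjamini-Hochberg adjustment). VEH-CD differed from VEH-WT by 0.25 ± 0.15 (adjusted p = 0.544, limma), and VERCUR-CD from VEH-CD by 0.19 ± 0.15 (adjusted p = 0.867, limma). The mean of VERCUR-CD was thus farther from VEH-WT than that of VEH-CD, and the fitted differences from VEH-WT were positive in all 3 other groups. In VERCUR-CD against VEH-WT, 8.68% of all genes had an unadjusted p under 0.05.

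Casp1, the protease that inflammasomes activate, had 48.2, 75.0 and 49.5 normalized counts in VEH-WT and 72.0, 30.9 and 51.5 in VEH-CD. VERCUR-WT mice had 58.2, 55.6 and 43.1, and VERCUR-CD mice 44.5, 45.0 and 41.4. All VERCUR-CD mice lay below all VEH-WT mice, as did those of 7.33% of all genes, and the VEH-CD mice spread on both sides. VERCUR-CD differed from VEH-WT by -0.36 ± 0.275 (log2, SE, adjusted p = 0.758, limma) and VEH-CD from VEH-WT by -0.21 ± 0.275 (adjusted p = 0.790, limma). VEH-CD 2 had the lowest value of the 12 (30.9), and without it the difference of VEH-CD from VEH-WT was 0.11. Without VEH-WT 2, the mouse with the highest value (75.0), the difference was -0.007, and without VEH-CD 1 it was -0.49. The sign and size of this difference thus rested on single mice of both groups.

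Casp4, which encodes the mouse protease of the noncanonical pathway (often called caspase-11), binds bacterial lipopolysaccharide and cleaves gasdermin D. It had 10.1, 4.62 and 9.56 normalized counts in the VEH-WT mice, 12.6, 8.83 and 11.98 in VEH-CD, 10.7, 11.1 and 15.5 in VERCUR-WT and 13.1, 9.89 and 11.6 in VERCUR-CD. All VERCUR-WT mice lay above all VEH-WT mice, by a narrow margin (10.7 against 10.1), as did those of 4.48% of all genes. VEH-CD and VERCUR-CD overlapped with VEH-WT. The difference of VERCUR-WT from VEH-WT was 0.61 ± 0.329 (log2, SE, 1.53-fold, adjusted p = 0.960, limma), on 4 to 11 counted reads in the VEH-WT mice and 9 to 18 in the VERCUR-WT mice. The exact Poisson intervals of the counts overlapped between these groups (4 reads, 1.09 to 10.2, against 9 reads, 4.12 to 17.1), for counting error only. Without VEH-WT 2, the mouse with 4 reads, the difference was 0.29. The mean of Casp4 over all mice was 10.8, just over the filter of 10. The VEH-WT mean was 8.09, under the filter, and the VERCUR-WT mean 12.4. The gene thus passed only through the groups where it was higher, so this difference is not independent of the filter.

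Gsdmd, which encodes the pore protein gasdermin D, had 65.0, 65.8 and 65.2 normalized counts in VEH-WT and 80.0, 57.4 and 87.4 in VEH-CD. VERCUR-WT mice had 96.1, 98.2 and 76.8, and VERCUR-CD mice 72.4, 57.6 and 88.5. The VEH-WT mice were close together (CV 0.642%, against about 11.5% from counting at the mean reads of this gene). All VERCUR-WT mice lay above them, and both CD groups lay on either side. The difference of VERCUR-WT from VEH-WT was 0.45 ± 0.195 (log2, SE, 1.37-fold), with an unadjusted p of 0.0375 and an adjusted p of 0.944 (limma with Benjamini-Hochberg adjustment). In this comparison 5.22% of all genes had an unadjusted p under 0.05, and 4.48% had all VERCUR-WT mice above all VEH-WT mice. In CD mice the difference with co-treatment was -0.04 ± 0.195 (adjusted p = 0.971, limma), and the interaction of genotype and treatment was -0.49 ± 0.276 (adjusted p = 0.816, limma), so the 2 effects of co-treatment were not shown to differ.

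Il18, whose product is the cytokine that caspase-1 matures, had 485, 419 and 471 normalized counts in VEH-WT and 578, 460 and 545 in VEH-CD. VERCUR-WT mice had 456, 490 and 542, and VERCUR-CD mice 621, 504 and 548. All VERCUR-CD mice lay above all VEH-WT mice, while VEH-CD and VERCUR-WT each overlapped with VEH-WT. The difference of VERCUR-CD from VEH-WT was 0.28 ± 0.112 (log2, SE, 1.21-fold), with an unadjusted p of 0.0279 and an adjusted p of 0.513 (limma with Benjamini-Hochberg adjustment). VEH-CD differed from VEH-WT by 0.20 ± 0.112 (adjusted p = 0.509, limma) and VERCUR-CD from VEH-CD by 0.08 ± 0.112 (adjusted p = 0.897, limma). In each CD group, mouse 2 had the lowest value of Il18, Pycard, Casp4 and Gsdmd, and also the lowest summed level of the microglia markers.

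**Figure D3:**
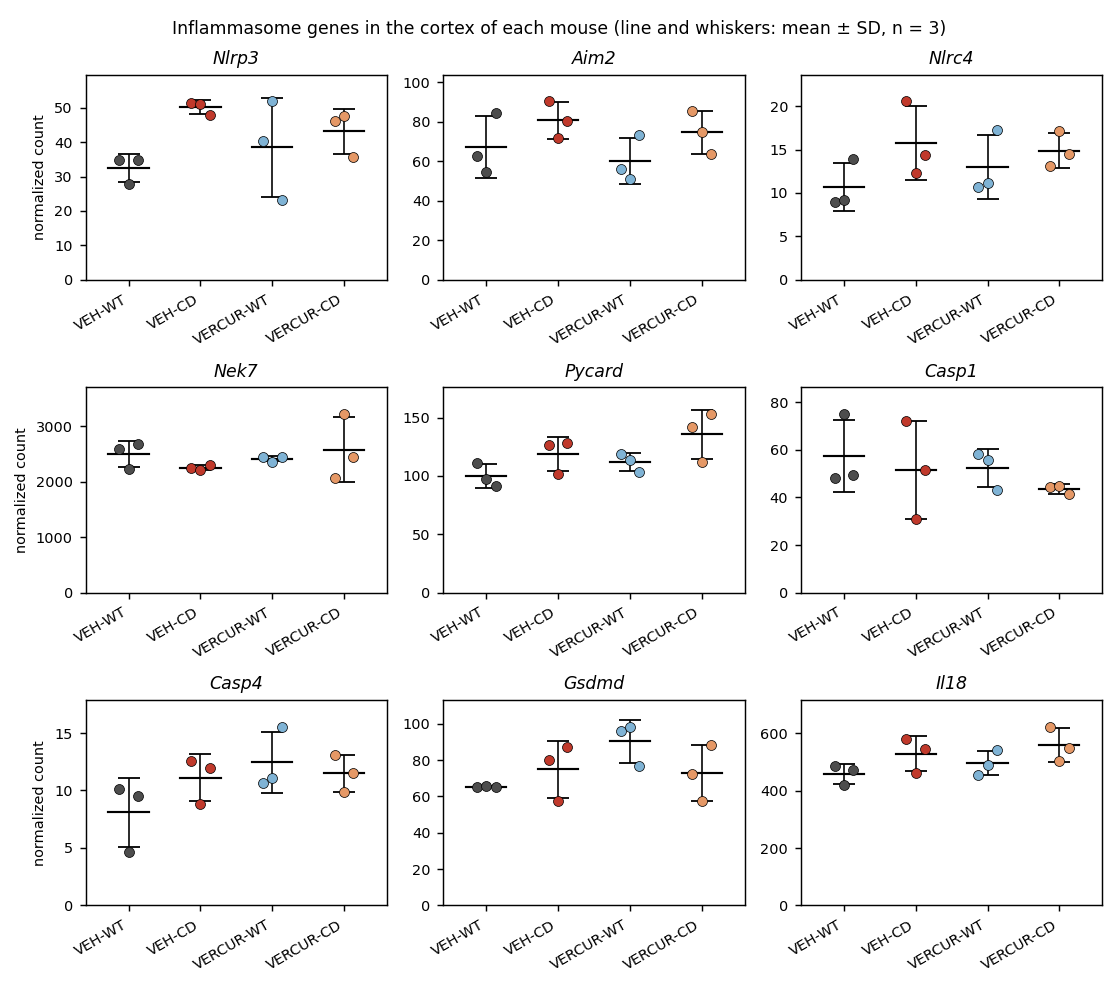
Normalized counts of the 9 genes, 1 panel per gene and 1 point per mouse, with lines and whiskers for the mean ± SD of the 3 mice of each group. The 3 VEH-CD mice lie above the 3 VEH-WT mice for Nlrp3, and the 3 VERCUR-CD mice lie above the 3 VEH-WT mice for Nlrp3, Pycard and Il18.

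Against VEH-WT, the deletion gave positive differences in 7 of the 9 genes and negative ones in 2 (Nek7 and Casp1). The median over the 9 was 0.25 on the log2 scale, beside -0.0028 over all genes, of which 49.3% were positive. Most of the 9 had been reported by the study as raised in these same mice. The signs and the median are thus not independent of the choice of genes. None of the 9 was a DEG, where 44 of 17111 genes (0.257%) were, and 1 of 9 (Nlrp3) had all VEH-CD mice above all VEH-WT mice, as 9.28% of all genes did. With so few DEGs in all, a count of 0 among 9 genes did not stand apart from that share. By unadjusted p, 1 of the 9 was under 0.05, as were 11.8% of all genes.

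Between VERCUR-CD and VEH-CD, which answers what co-treatment did in deletion mice, 4 genes had positive and 5 negative differences, with a median of -0.04 beside 0.0028 over all genes. No gene of the 17111 was a DEG (0%), and 605 genes, none of them among the 9, had an unadjusted p under 0.05. This comparison and that of VEH-CD with VEH-WT share the VEH-CD mice. The sensors had 0.62 and -0.22 (Nlrp3), 0.28 and -0.12 (Aim2) and 0.51 and -0.06 (Nlrc4) in the deletion and the co-treatment comparison, and Nek7 had -0.15 and 0.17. Pycard had 0.25 and 0.19, Casp1 -0.21 and -0.15, and Casp4 0.47 and 0.05. Gsdmd had 0.17 and -0.04, and Il18 0.20 and 0.08. The 95% intervals for VERCUR-CD against VEH-CD ran from -0.78 to 0.33 for Nlrp3, from -0.55 to 0.32 for Aim2, from -0.14 to 0.51 for Pycard and from -0.16 to 0.32 for Il18.

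Against VEH-WT, VERCUR-CD mice had positive differences in 8 of the 9 genes (all but Casp1), with a median of 0.28 beside 0.0016 over all genes, of which 50.5% were positive. None of the 9 was among the 34 DEGs (0.199%), and 2 (Pycard and Il18) had an unadjusted p under 0.05, as did 8.68% of all genes. The groups did not overlap for 3 genes that were higher and 1 that was lower, where 6.56% and 7.33% of all genes were. In WT mice, co-treatment gave positive differences in 6 genes and negative ones in 3, with a median of 0.17. Over all genes the median was -0.0014, and 49.5% were positive. For 2 of the 9 (Casp4 and Gsdmd) all VERCUR-WT mice lay above all VEH-WT mice, as for 4.48% of all genes. None of the 9 was a DEG, as was none of all genes (0%, and 893 with an unadjusted p under 0.05). Between the treated genotypes, VERCUR-CD against VERCUR-WT, 6 differences were positive and 3 negative, with a median of 0.17. The median over all genes was 0.0044, and 51.6% were positive. In this comparison 0 of the 9 were among the 25 DEGs (0.146%).

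**Figure D4:**
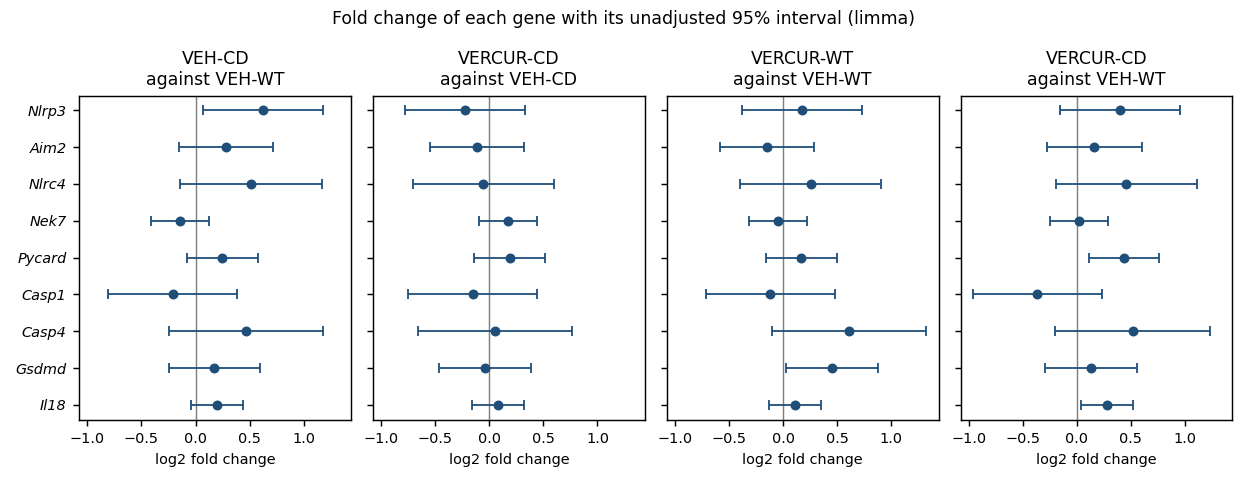
Differences on the log2 scale of the 9 genes in 4 comparisons, with unadjusted 95% intervals from limma. The intervals leave out 0 for Nlrp3 in VEH-CD against VEH-WT, Gsdmd in VERCUR-WT against VEH-WT, and Pycard and Il18 in VERCUR-CD against VEH-WT.

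The interaction of genotype and treatment was positive in 3 genes and negative in 6, with a median of -0.04, and no gene was called, among the 9 or among all genes (0%, with 1035 at an unadjusted p under 0.05). Gsdmd had the smallest adjusted p of the 9 (0.816, limma with Benjamini-Hochberg adjustment). The Kruskal-Wallis test over the 4 groups, enumerated exactly over 369600 partitions for each of the 9 genes, gave the smallest p for Pycard (exact p = 0.107), then Nlrp3 (exact p = 0.125) and Il18 (exact p = 0.156), all unadjusted. For the other 6 genes the exact p ran from 0.247 (Gsdmd) to 0.514 (Nek7). For Nlrp3 the value depended on the treated WT mice. Without VERCUR-WT, over the other 3 groups, the exact p was 0.00357, the smallest that 3 groups of 3 can give. This p is unadjusted too and rests on the order of mice with close values (47.7 and 47.9, 35.6 and 34.8). The next smallest Kruskal-Wallis p over these 3 groups was that of Pycard (exact p = 0.0857). Only the 9 genes were tested in this way, so no share over all genes is given.

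Of 60 other genes of the pathway, 48 were tested, and 0 were DEGs in any of the 5 comparisons or called in the interaction. In VEH-CD against VEH-WT, 19 had positive and 29 negative differences, with a median of -0.04. The other sensors had the lowest median (-0.26), with 8 of 10 negative. They ran from Nlrc3 (-0.77, adjusted p = 0.460 by limma), a negative regulator of innate immune signalling, to Nlrx1 (0.32, adjusted p = 0.262 by limma), a mitochondrial member of the family. Several of these sensors were near the filter, with means over all mice as low as 12.2 normalized counts. Nlrc3 averaged 19.1 in VEH-WT and 11.4 in VEH-CD mice. The 16 regulators of the sensors had a median of -0.02, from Bcl2 (-0.38), which binds NLRP1, to Card9 (0.40), an adaptor of C-type lectin signalling. All 6 other proteases and pore proteins had small positive differences, from Casp12 (0.06) to Casp8 (0.14), with a median of 0.09. Of the 5 tested cytokines and receptors, Il1a, an interleukin-1 cytokine, had the highest difference (0.67, adjusted p = 0.490 by limma) and Il1r1, the receptor that signals for it, the lowest (-0.53, adjusted p = 0.276 by limma). Il1b is not analysed here.

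The 11 priming genes, which act upstream of the transcription of Nlrp3, had negative differences in 9 and a median of -0.09. Nfkbia, the inhibitor that holds NF-kappa B in the cytosol, had the lowest (-0.48, adjusted p = 0.168 by limma), and averaged 1051 normalized counts in VEH-WT mice and 748 with the deletion. Tlr2, a receptor of bacterial lipoproteins, had the highest (0.33, adjusted p = 0.499 by limma), with means of 42.7 and 53.6. In VERCUR-CD against VEH-CD the 48 genes had a median of 0.03, with 27 positive and 21 negative. The positive median of the 9 genes in VEH-CD against VEH-WT was thus not seen over the 48 other genes of the pathway, a difference that was not tested. Both lists held genes whose direction the study had reported from these same mice. Most of the 9 were reported as raised. Among the 48, Txnip, Bcl2, Nfkbia and Il1r1 were reported as lowered, and Pstpip1, Card9 and Nlrx1 as raised. The contrast is thus not independent of how the lists were drawn.

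**Figure D5:**
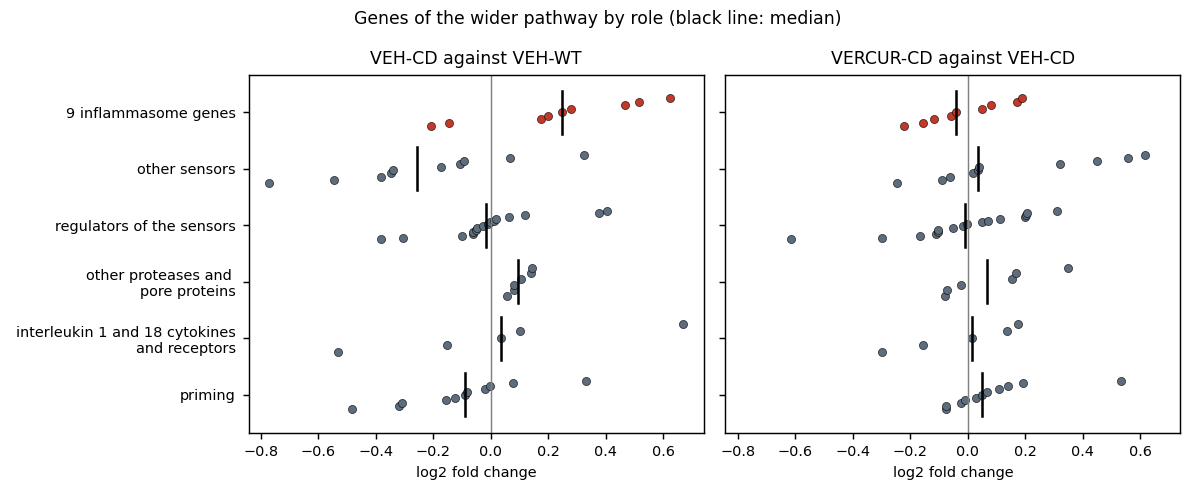
Differences on the log2 scale of the 9 genes and of 48 other pathway genes in 5 roles, 1 point per gene, for VEH-CD against VEH-WT and VERCUR-CD against VEH-CD, with the median of each role as a black line. In the first panel the median of the 9 genes is 0.25 and that of the other sensors is -0.26.

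Of the 20 microglia markers, 14 had positive differences in VEH-CD against VEH-WT (median 0.11), 18 in VERCUR-WT against VEH-WT (median 0.11) and 19 in VERCUR-CD against VEH-WT (median 0.12), and 0 were DEGs. Against VEH-WT most of the 9 genes were positive too, but in VERCUR-CD against VEH-CD 15 of the 20 markers were positive (median 0.07), where 4 of the 9 genes were (median -0.04). The summed marker level was 30213 to 35655 normalized counts in vehicle WT mice and 32208 to 38136 in vehicle CD mice. It was 34152 to 36122 in VERCUR-WT and 35768 to 38284 in VERCUR-CD. All VERCUR-CD mice thus lay above all VEH-WT mice, by a narrow margin (35768 against 35655). The same held for Nlrp3, Pycard and Il18, and for 6.56% of all genes. The part of the microglial share in these values was not tested. Markers of border macrophages (8 of 8 detected) had a median of -0.22 in VEH-CD against VEH-WT, with sums of 361 to 411 in VEH-WT and 259 to 424 in VEH-CD. Of 8 markers of blood leukocytes, 2 were in the table, with sums of 19.4 to 288 per mouse. Markers of red blood cells had positive differences in 5 of 5 in VEH-CD against VEH-WT (median 0.36) and negative ones in 5 of 5 in VERCUR-CD against VEH-CD (median -0.34). They summed to 17575 to 26146 normalized counts in the VEH-WT group, 20822 to 35997 with the deletion, 18409 to 26911 in VERCUR-WT and 17900 to 25949 in VERCUR-CD, with overlap between all groups. Markers of oligodendrocytes were negative in 5 of 5 against VEH-WT in VEH-CD (median -0.19), VERCUR-WT (median -0.50) and VERCUR-CD (median -0.29), with sums of 67424 to 197295 per mouse. None of these markers was a DEG, and their part in the values of the 9 genes was not tested.

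Across the 12 mice, the 9 genes did not vary as a single group. Pearson's r between members, given as a description over 12 mice that share the group structure and depth, ran from -0.33 (Casp1 and Casp4) to 0.79 (Casp4 and Il18). It was 0.73 for Pycard and Il18 and 0.72 for Aim2 and Nlrc4, and for Nlrp3 it reached at most 0.36 (with Pycard). Among all genes tested, those most like Nlrp3 included 3110082I17Rik and Sdr42e1 (each r = 0.83, n = 12 mice). Those most like Aim2 were Nusap1 (r = 0.91), Fbxo32 (0.89) and Aspm (0.88). For Nlrc4 they were Nqo1 (r = 0.91), Synpo2 (0.90) and 2810013P06Rik (0.88), and for Nek7 they were 4933431E20Rik (r = 0.98), Lamp2 (0.97) and Rims1 (0.97). The likest genes to Pycard were Mapk3, Mcts2 and Cspg5 (r = 0.89, 0.89 and 0.88), and to Il18 Echs1, Anapc13 and Eef1a1 (r = 0.96, 0.95 and 0.95). For Casp1 they were Icam1, Gm13414 and Clec4a1 (r = 0.85, 0.82 and 0.81), for Casp4 Smim20, Pars2 and Gm48784 (r = 0.96, 0.91 and 0.91), and for Gsdmd Ccdc74a, Marc2 and Thra (r = 0.93, 0.87 and 0.85). No gene of the 9 was among the 3 likest of another.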

How the data were processed

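Cortical RNA of 12 mice was sequenced. Per the submitters' processing notes and the methods, paired-end reads were mapped with STAR 2.5.3a to the GRCm38 genome. The authors then deposited normalized counts, in which the reads of a gene are divided by 1 factor per mouse. The counting program, annotation release and normalization are not given in the sources used here. In each mouse 100% of the low values came out as whole reads of a common size (within 0.1 of a read), which gave the counted reads. The table held 0 columns of other samples. A pair of further tables, which hold expression relative to VEH-WT for genes the authors selected, was not used.

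limma 3.58.1 (run in R 4.3.3) modelled log2(normalized count + 1) of the 17111 genes with a mean of at least 10, with all 12 mice in 1 fit of 4 group means and an intensity trend. Two-sided p-values were adjusted over all 17111 genes. The test was checked on simulated data. Kruskal-Wallis p-values were enumerated exactly with SciPy and are unadjusted. With 3 mice against 3, a two-sided exact permutation test cannot pass 0.05, so none was run. Each GEO label names 1 mouse.

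The members, gene lists, motifs and tests were chosen with earlier results of these data known. The named genes are the 9 members, the highest and lowest of each pathway role in VEH-CD against VEH-WT, and the 3 genes of highest r with each member. Of the genes so listed, 1 marker and 1 gene like a member are not reported here. Alternatives were 2 other pseudocounts, other filters, quantile normalization, median centring, no trend, only the groups compared, removal of the farthest value in groups with a CV of 20% or more, the replicate number as a block, and each mouse left out. Leaving out the 4 mice of high striatal markers, and the striatal sum as a covariate, were added after the data were seen. Mice of the same replicate number did not deviate together (r from -0.35 to 0.27 over 18 pairs of mice), so the numbers do not pair the mice.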

Additional observations from a re-analysis of the deposited data

Results flagged for a closer look

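None of the 9 inflammasome genes had samples that all moved one way in one genotype or treatment and all the opposite way in the other. Among the 48 other pathway genes, 5 did so. With co-treatment, all 3 WT mice and all 3 CD mice moved to opposite sides of the vehicle mean of their genotype for Txnip, Pstpip1, Card9 and P2rx7, with interactions of 0.46, -0.49, -0.91 and 0.32 on the log2 scale. With the deletion, the same held between vehicle and VERCUR mice for Nlrx1 (interaction -0.45), Card9 (-0.91) and P2rx7 (0.32). Card9 averaged 51.1 normalized counts in vehicle WT, 67.5 in vehicle CD, 62.6 in treated WT and 44.5 in treated CD mice. The limma test of the interaction gave adjusted p-values of 0.816 to 0.817 for these genes (Benjamini-Hochberg over all genes), so none was shown to differ between groups. Of all 17111 genes tested, 8.10% had such opposite moves with co-treatment and 5.95% with the deletion, beside 4 and 3 of the 48.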

How the results depend on the processing

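Under every alternative run, 0 of the 9 genes were called in any comparison, except that removing the farthest value in groups with a CV of 20% or more gave 1 in VEH-CD against VEH-WT (Nlrp3, 0.62 on the log2 scale, adjusted p = 0.0245 in limma, beside 0.206 to 0.862 under the other alternatives). By construction this removal lowers the spread, and it raised the DEGs over all genes from 44 to 972 in VEH-CD against VEH-WT, from 0 to 241 in VERCUR-CD against VEH-CD, from 0 to 649 in VERCUR-WT against VEH-WT, from 25 to 448 in VERCUR-CD against VERCUR-WT, from 34 to 840 in VERCUR-CD against VEH-WT and from 0 to 492 in the interaction. In VEH-CD against VEH-WT, leaving out a mouse gave 24 to 71 DEGs over all genes (71 without VERCUR-CD 2), and leaving out the 4 mice of high striatal markers gave 16. With the replicate block, 0 of the 9 genes were called, Nlrp3 differed by 0.62 between VEH-CD and VEH-WT (adjusted p = 0.347, limma), and DEGs over all genes numbered 40. The Kruskal-Wallis count of genes with an exact p under 0.05 was 0 over 4 groups and 1 (Nlrp3) over the 3 groups without VERCUR-WT. With a mouse left out it was 0 to 2 (Pycard and Il18 without VEH-CD 2, Pycard without VERCUR-CD 2, Nlrp3 without VERCUR-WT 2 or VERCUR-WT 3). The test was run on the 9 genes only, so no share over all genes can be set beside these counts. Leaving out a mouse, the difference of Nlrp3 between VEH-CD and VEH-WT ran from 0.52 to 0.68, and that of Casp4 between VERCUR-WT and VEH-WT from 0.29 (without VEH-WT 2) to 0.79.

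Of 1269 differences refitted under the alternatives, 68 changed sign, 45 of them with a mouse left out. None was called, and the cause was not tested. With the farthest value removed, the new values were 0.31 for Casp1 in VEH-CD against VEH-WT, 0.14 for Nlrc4 and -0.001 for Nek7 in VERCUR-CD against VEH-CD, 0.022 for Aim2 and 0.084 for Casp1 in VERCUR-WT against VEH-WT, -0.094 for Nlrp3, -0.10 for Nek7 and 0.065 for Casp4 in VERCUR-CD against VERCUR-WT, -0.15 for Nek7 and -0.017 for Gsdmd in VERCUR-CD against VEH-WT, and -0.14 for Aim2 in the interaction. Without the 4 mice of high striatal markers they were 0.22 for Nlrc4, 0.11 for Casp1 and 0.011 for Gsdmd in VERCUR-CD against VEH-CD, 0 for Nek7 in VERCUR-WT against VEH-WT, -0.15 for Nlrp3 in VERCUR-CD against VERCUR-WT, and -0.008 for Aim2, 0.19 for Casp1 and 0.001 for Il18 in the interaction. With the striatal sum as a covariate they were 0.057 for Aim2 and 0.11 for Nlrc4 in VERCUR-CD against VEH-CD and -0.02 for Nek7 in VERCUR-CD against VEH-WT. Quantile normalization gave 0.003 for Casp1 in the interaction.

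Leaving out each mouse gave these ranges where a sign changed. In VEH-CD against VEH-WT it was -0.49 to 0.11 for Casp1. In VERCUR-CD against VEH-CD it was -0.47 to 0.12 for Casp1, -0.093 to 0.15 for Casp4, -0.22 to 0.12 for Gsdmd, -0.015 to 0.15 for Il18, -0.001 to 0.32 for Nek7 and -0.21 to 0.14 for Nlrc4. In VERCUR-WT against VEH-WT it was -0.30 to 0.022 for Aim2, -0.23 to 0.084 for Casp1, -0.13 to 0.007 for Nek7 and -0.068 to 0.49 for Nlrp3. In VERCUR-CD against VERCUR-WT it was -0.18 to 0.065 for Casp4, -0.10 to 0.21 for Nek7 and -0.094 to 0.47 for Nlrp3. In VERCUR-CD against VEH-WT it was -0.017 to 0.29 for Gsdmd and -0.15 to 0.17 for Nek7. In the interaction it was -0.14 to 0.19 for Aim2, -0.36 to 0.24 for Casp1, -0.13 to 0.039 for Il18 and -0.089 to 0.15 for Pycard.

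The planned count tests on recovered reads were not run. Under the filter at a mean of 50, Nlrp3, Nlrc4 and Casp4 left the test. With 3 mice a group and 8 to 20 counted reads of Nlrc4 and 4 to 18 of Casp4, depth limits those genes most.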
